A study of Mus musculus with 9 samples.

Results

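The transcriptome of complete C/EBPδ knock-out macrophages was compared with that of wild-type macrophages, using the 6 libraries labelled CEBPD KO or CEBPD wild type among the 9 of the series. Both groups are unstimulated RAW264.7 cells, a transformed mouse macrophage line, and no agent was given to either. Knock-out cells carry a homozygous out-of-frame edit of Cebpd made with CRISPR/Cas9, 3 libraries, and wild-type cells carry the unedited gene, 3 libraries. The other 3 libraries are of ΔTAD macrophages, in which an in-frame edit removes the transactivation domain. They entered the model to estimate the spread and serve below only as a second reference. The first ΔTAD library stood apart, with 15.9% of its counts on chromosome 17 against 6.73% and 6.79% in the others. Differences between knock-out and ΔTAD macrophages are therefore also given without it, while most ΔTAD means include it. The series states that independent clones were selected, but neither the labels nor the methods say whether each library is its own clone, so p-values measure the spread between these libraries.

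C/EBPδ is a basic leucine zipper transcription factor. It pairs with itself or with other C/EBP proteins and binds CCAAT-related sites in promoters and enhancers. In macrophages it is known as a factor induced by Toll-like receptor signals that acts on cytokine genes together with NF-κB and C/EBPβ. C/EBPα and C/EBPβ share its recognition site and take part in myeloid differentiation.

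The labelled gene was examined first. Cebpd (ENSMUSG00000071637, chromosome 16, C/EBPδ itself) measured 6.13, 7.29 and 6.12 CPM (counts brought to a common library size) in the 3 wild-type libraries and 5.22, 5.50 and 5.61 CPM in the 3 knock-out libraries. The knock-out libraries were all below the wild-type libraries, but the log2 fold change of −0.26 (standard error 0.125, 95% interval −0.52 to 0.00025) was not called (Benjamini-Hochberg adjusted p = 0.085, quasi-likelihood test of edgeR). The edit removes a small stretch of the transcript and counts cover the whole gene, so this level does not check the labels. The counts on genes ranged from 16355292 to 18686199 in knock-out and from 16113306 to 19649318 in wild-type libraries. A count of 3, taken as the floor of detection, equalled on average 0.170 CPM in knock-out and 0.168 CPM in wild-type libraries, and such floors cover counting error only. No pair of libraries held identical counts, and within a genotype 1 gene in knock-out and 6 in wild-type macrophages spanned more than 4-fold among those with at least 50 counts. Of 12 macrophage markers, 11 lay above the floor in both genotypes, among them Csf1r, Adgre1, Itgam and Cd68. Their summed level was 4307 to 4539 CPM in wild-type and 6327 to 6712 CPM in knock-out libraries, with 6 markers higher and 2 lower. Markers of mast cells (6 of 6) were at 0 in all 6 libraries, and those of fibroblasts and epithelial cells summed to at most 0.182 CPM. Endothelial markers summed to 6.08 to 7.38 CPM in wild-type and 37.6 to 38.8 CPM in knock-out libraries, where Vwf was higher and Kdr lower, while Emcn and Cldn5 were at 0. The sums of 9 B-cell markers (18.8 to 19.7 CPM in wild-type, 33.8 to 39.6 CPM in knock-out libraries) and of 9 T-cell markers (6.38 to 7.29 CPM and 4.76 to 5.06 CPM) came from 1 tested gene each, Blnk and Lck, with Ms4a1, Cd3e and Cd3g at 0. Neutrophil, dendritic-cell and erythroid markers summed to at most 1.53, 1.93 and 0.685 CPM with no call. The part of other cell types in the results below was not tested beyond these values. RNA of bulk cultures cannot tell a change in the number of cells of a type from a change in RNA per cell.

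Knock-out macrophages differed from wild-type macrophages across much of the transcriptome. Of 14312 genes tested, 6468 (45.2%) were called at an adjusted p-value under 0.01, 3206 lower and 3262 higher in knock-out macrophages. Chromosomes 12 and 17 moved as wholes and are set apart below. Among the 13025 genes elsewhere, 2819 fell (21.6%) and 2743 rose (21.1%), with a median absolute log2 fold change of 0.38 among those called. Many of these calls were small, and 49.8% of them lay under 1.3-fold. At 2-fold or more, 499 genes fell (3.83%) and 425 rose (3.26%). The verbs rose and fell stand below for genes called by this test and threshold.

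The larger the change, the more it lay in one direction. With genes at the floor taken at their bound, 498 fell and 425 rose by at least 2-fold, 130 fell and 34 rose by at least 8-fold, and 31 fell and 4 rose by at least 32-fold. The knock-out and wild-type libraries did not overlap for 7535 of the 13025 genes (57.9%). Genes named below from the lists or among the largest changes had to show no overlap. Where it is mentioned for them, it describes the values and is not a separate result. At the other end, 3430 genes had a 95% interval of the log2 fold change that stayed within 0.25 of 0.

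**Figure D1:**
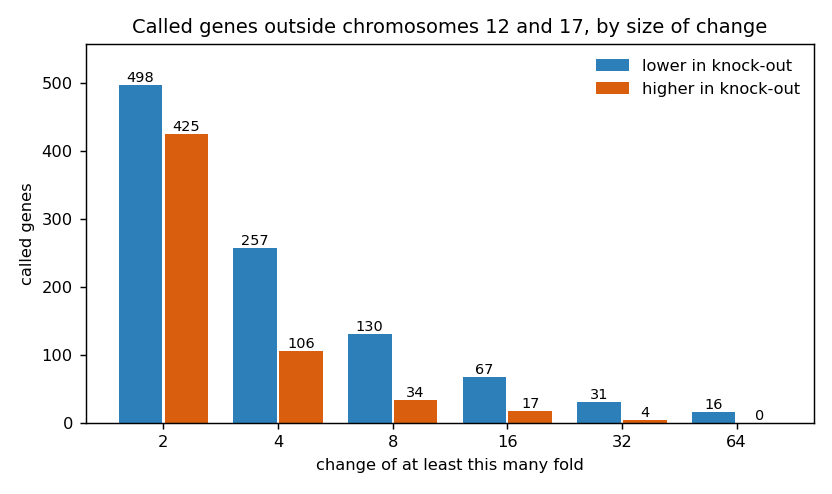
Number of called genes outside chromosomes 12 and 17 (vertical axis) whose change reaches each fold (horizontal axis), lower (blue) and higher (orange) in knock-out macrophages. Counts are near each other at 2-fold (498 and 425) and part to 67 and 17 at 16-fold.

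Chromosome 12 was lower and chromosome 17 higher in knock-out macrophages along their whole length. On chromosome 12 the median log2 fold change of 541 genes was −0.52, a ratio of 0.696, and 350 genes fell (64.7%) against 21 that rose. The medians of the single libraries, relative to the wild-type mean, were −0.52, −0.48 and −0.53 in knock-out libraries. On chromosome 17 the median over 746 genes was 0.48, a ratio of 1.40, with 498 genes that rose (66.8%) and 37 that fell, and the knock-out libraries stood at 0.48, 0.48 and 0.49. Wild-type libraries ran from −0.0091 to 0.010 on both chromosomes. In an exact two-sided permutation test over libraries p = 0.1 for each chromosome, the smallest that 3 against 3 allows. The same permutation test gave p = 0.1 for chromosomes 1, 2, 4, 6, 9, 11, 14, 15 and 18 too, so it does not set chromosomes 12 and 17 apart. The share of counts on chromosome 12 was 2.80% to 2.81% in knock-out and 4.18% to 4.22% in wild-type libraries, and on chromosome 17 it was 6.30% to 6.45% and 4.44% to 4.82%.

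Windows of 50 neighbouring tested genes ran from −0.61 to −0.36 on chromosome 12 and from 0.26 to 0.60 on chromosome 17, so no stretch of either returned to 0. The medians of the other chromosomes lay between −0.05 and 0.03. Of 1217 windows elsewhere, 8 lay beyond 0.25 in size, and the highest, 0.41, covered the genes from Gm43715 to Tmem33 on chromosome 5. In ΔTAD macrophages the medians were −0.54 for chromosome 12 and 0.50 for chromosome 17 against the same wild-type libraries. The single ΔTAD libraries, the first one first, stood at −0.53, −0.51 and −0.54 on chromosome 12 and at 0.47, 0.47 and 0.49 on chromosome 17. DNA was not measured, and the number of copies of these chromosomes was not tested.

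**Figure D2:**
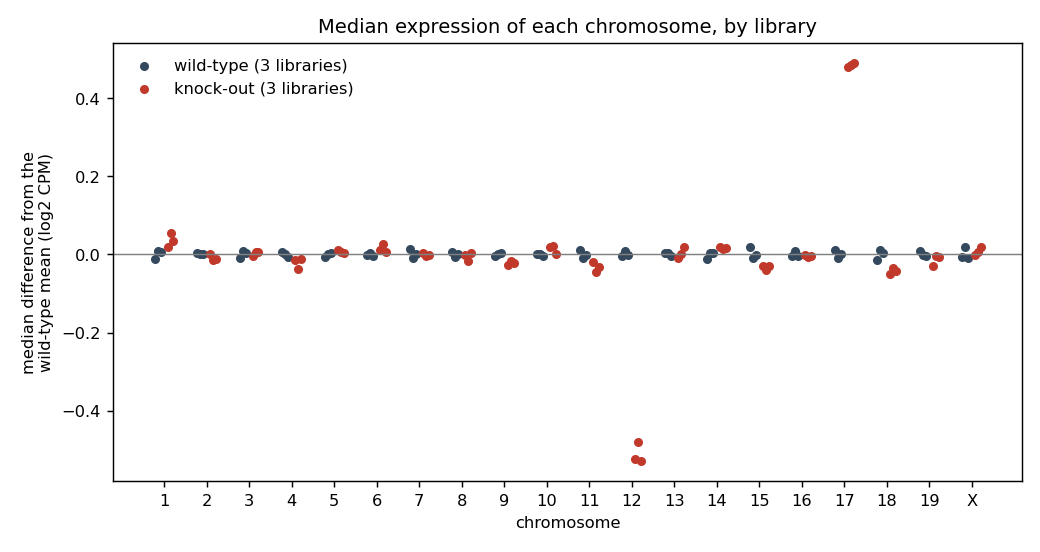
Median over the tested genes of each chromosome (horizontal axis) of the difference from the wild-type mean, in log2 CPM (vertical axis), with 1 point for each of 3 wild-type and 3 knock-out libraries. The knock-out libraries stand near −0.5 on chromosome 12 and near 0.5 on chromosome 17, and every other chromosome lies near 0.

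Single genes of both chromosomes departed from their chromosome's median. Relative to it, 236 of 541 genes were called on chromosome 12 (43.6%) and 325 of 746 on chromosome 17 (43.6%). Elsewhere 42.7% of genes were called against 0, so these shares are near the general one. Of the genes called, 130 on chromosome 12 and 162 on chromosome 17 were below the median. On chromosome 12, Jag2, a Notch ligand, measured 72.2, 69.6 and 71.1 CPM in wild-type and 11.9, 11.7 and 11.9 CPM in knock-out libraries. Its log2 fold change of −2.59 lay far below the chromosome, as did those of Angel1 (−2.64) and Eml5 (−1.90). In the other direction stood Fos, a subunit of AP-1, with 10.5, 13.02 and 9.93 CPM in wild-type and 24.5, 22.96 and 22.7 CPM in knock-out libraries (1.07), the kinase gene Map3k9 (1.17) and the histone deacetylase gene Hdac9 (0.64). All 3 were higher in every knock-out library although their chromosome was lower.

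On chromosome 17, Rasal3, a Ras GTPase-activating protein of blood cells, had 16.3, 15.1 and 14.7 CPM in wild-type libraries and no count in any knock-out library, at least 90.3-fold lower. Trem3, a TREM family receptor, had a log2 fold change of −3.97, and Ltb, encoding lymphotoxin β, one of −2.71. Above the chromosome's median were Slc8a1, a sodium-calcium exchanger (2.53), Neurl1b, a ubiquitin ligase acting on Notch ligands (2.42), and the kinase gene Map4k3 (2.31). Map4k3 measured 28.5, 27.7 and 27.9 CPM in wild-type and 136, 142 and 138 CPM in knock-out libraries. Gene lists are therefore counted below without chromosomes 12 and 17. Their counts are to be read against the 21.1% of all genes there that rose and the 21.6% that fell. A list near these shares moved no more often than genes in general.

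Some genes were present in every wild-type library and absent from every knock-out library. With absence set at 3 counts or fewer and presence at 30 or more in every library of a genotype, 52 genes were switched off and 2 switched on. The 52 lie on 19 chromosomes, with 3 on chromosome 12 and 3 on chromosome 17, and 48 are protein-coding. In ΔTAD macrophages 41 of the 52 also had a mean below 1 CPM, as they did without the first ΔTAD library. No such share was taken for comparable genes, and the same wild-type libraries chose the 52. The ΔTAD means of both switched-on genes were above the wild-type means, but these genes were chosen for at most 3 counts in every wild-type library. A higher ΔTAD mean was thus likely beforehand. The median wild-type level of the 52 was 4.05 CPM. The highest were Ly6e, a GPI-anchored surface protein, and Nedd4, a ubiquitin ligase, at mean levels of 454 and 415 CPM in wild-type macrophages. Both fell to at most 3 counts per library, which makes them at least 2675-fold and 2444-fold lower.

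Emp2, a tetraspan membrane protein, measured 33.6, 36.1 and 34.3 CPM in wild-type and 0.105, 0.121 and 0.113 CPM in knock-out libraries. Pdpn, podoplanin, a mucin-type glycoprotein that binds the platelet receptor CLEC-2, had 32.2, 33.05 and 31.1 CPM and 0.0527, 0.121 and 0.170 CPM. Lpin3, a phosphatidate phosphatase of triglyceride synthesis, had 32.1, 26.7 and 28.8 CPM and 0.0527, 0.0604 and 0.113 CPM. No library of one genotype came near those of the other for these 3 genes, and the bounds of their decreases were 204-fold, 189-fold and 172-fold. Lgalsl, a galectin-related protein, and Wwc2, a WW domain protein, had no count in any knock-out library, against wild-type means of 23.8 and 19.6 CPM. The GTPase Rasd2 (at least 133-fold lower) and the actin-binding supervillin gene Svil (at least 114-fold lower) complete the switched-off genes among the 10 largest decreases. Further names on the list are Cd86, Cd48, Trem1, the fatty acid receptor gene Ffar4, the fatty acid elongase gene Elovl4 and Alpl, encoding tissue-nonspecific alkaline phosphatase.

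Ggt7, a member of the γ-glutamyltransferase family, just missed the definition. It measured 27.02, 27.3 and 24.4 CPM in wild-type and 0.0527, 0.181 and 0.227 CPM in knock-out libraries, a log2 fold change of −7.38 (standard error 0.182). In ΔTAD macrophages its mean level was 28.3 CPM, and knock-out differed from ΔTAD macrophages by −7.49 on the log2 scale (adjusted p = 2.11e-20, edgeR's quasi-likelihood test), or −7.44 without the first ΔTAD library. The switched-on genes were Creg2, at least 25.8-fold higher, and Pcdhga6, a protocadherin, at least 15.1-fold higher. Pcdhga6 belongs to a cluster of genes with shared exons, so its count is uncertain.

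The largest increases at 10 CPM or more started from levels above the floor. Spink5, an inhibitor of serine proteases, rose from a mean of 20.1 to 829.9 CPM, and Fam107b and the membrane scaffold gene Flot2 had log2 fold changes of 5.52 and 5.18. Dapk1, death-associated protein kinase 1, measured 1.84, 1.79 and 1.76 CPM in wild-type and 41.5, 42.5 and 43.7 CPM in knock-out libraries (4.56 on the log2 scale, standard error 0.0881). Sptbn1, the β-spectrin of the membrane skeleton, measured 5.38, 7.41 and 6.84 CPM and 143, 141 and 136 CPM (4.43, standard error 0.0625). Kcnj2, an inwardly rectifying potassium channel, measured 4.74, 5.56 and 3.63 CPM and 55.9, 56.1 and 55.8 CPM (3.58, standard error 0.0881). In each of these genes the lowest knock-out library was far above the highest wild-type library. The transcript AI427809 rose by 4.54 on the log2 scale, while its mean in ΔTAD macrophages was 0.387 CPM (0.406 CPM without the first library) against 0.545 CPM in wild-type macrophages.

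**Figure D3:**
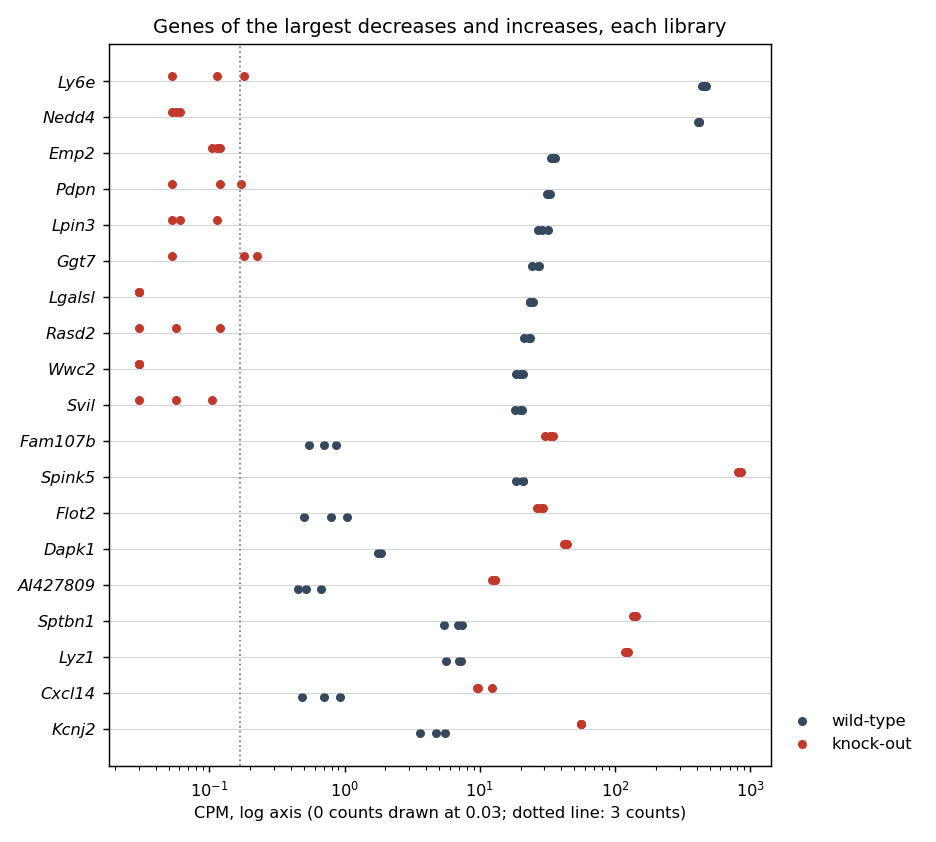
CPM on a log axis (horizontal) of the 10 genes with the largest decreases and 9 of the 10 with the largest increases outside chromosomes 12 and 17 among genes at 10 CPM or more in the higher genotype, with 1 point for each of 3 wild-type (dark) and 3 knock-out (red) libraries and libraries without a count drawn at 0.03. The dotted line is the mean floor of 3 counts in knock-out libraries, and only genes whose genotypes do not overlap were chosen.

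Promoters are shown for 5 genes whose changes are described here, because C/EBPδ acts by binding such sequence. They were chosen after seeing the sequences, to show windows with and without the letters searched. The 250 bases before the RefSeq start site (GRCm38.p6) are given 5′ to 3′ on the strand of the gene, and capitals mark the letters TTNNGNAA, of which the C/EBP palindrome TTGCGCAA is an instance, and CCAAT, each on either strand. The prostaglandin synthase gene Ptgs2 and the ligase gene Nedd4 fell, and Cebpa, the lysozyme gene Lyz1 and Hmgcs1, a gene of cholesterol synthesis, rose. Ptgs2 lies at chr1:150099781-150100030 on the plus strand, Nedd4 at chr9:72662081-72662330 (plus), Cebpa at chr7:35119043-35119292 (plus), Lyz1 at chr10:117292869-117293118 (minus) and Hmgcs1 at chr13:119690101-119690350 (plus).
Ptgs2: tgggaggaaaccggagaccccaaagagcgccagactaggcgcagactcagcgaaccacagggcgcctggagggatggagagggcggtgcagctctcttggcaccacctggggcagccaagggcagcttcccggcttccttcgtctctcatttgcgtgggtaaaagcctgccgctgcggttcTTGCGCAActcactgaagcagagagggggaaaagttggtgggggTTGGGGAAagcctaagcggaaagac
Nedd4: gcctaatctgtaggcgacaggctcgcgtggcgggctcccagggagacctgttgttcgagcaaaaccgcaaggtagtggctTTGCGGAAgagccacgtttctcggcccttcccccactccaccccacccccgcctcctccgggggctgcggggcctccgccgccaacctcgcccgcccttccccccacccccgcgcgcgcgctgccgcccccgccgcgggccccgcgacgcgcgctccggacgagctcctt
Cebpa: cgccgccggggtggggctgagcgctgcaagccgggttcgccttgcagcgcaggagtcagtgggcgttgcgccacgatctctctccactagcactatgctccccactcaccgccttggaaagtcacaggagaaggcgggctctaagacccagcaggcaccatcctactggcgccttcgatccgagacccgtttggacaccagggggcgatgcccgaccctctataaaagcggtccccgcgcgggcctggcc
Lyz1: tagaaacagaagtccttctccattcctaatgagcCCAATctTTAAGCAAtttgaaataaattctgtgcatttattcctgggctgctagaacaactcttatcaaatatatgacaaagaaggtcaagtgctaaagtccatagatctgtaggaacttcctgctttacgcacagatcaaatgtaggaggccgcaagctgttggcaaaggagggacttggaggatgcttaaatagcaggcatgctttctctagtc
Hmgcs1: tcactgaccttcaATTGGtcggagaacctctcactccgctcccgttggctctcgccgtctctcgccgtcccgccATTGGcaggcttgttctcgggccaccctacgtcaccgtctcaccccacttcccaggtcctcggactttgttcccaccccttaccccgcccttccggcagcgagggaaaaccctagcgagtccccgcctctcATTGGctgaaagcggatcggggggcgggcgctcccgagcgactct
The Ptgs2 window holds TTGCGCAA and a second match to TTNNGNAA, that of Nedd4 a single match, and that of Lyz1 both a match and CCAAT. The Hmgcs1 window holds CCAAT at 3 places, and that of Cebpa none of these letters. Of 27025 promoters of this length, 37.0% hold TTNNGNAA, 0.170% hold TTGCGCAA and 34.5% hold CCAAT, and among the 8313 promoters of tested genes outside chromosomes 12 and 17 the shares were 28.4%, 0.301% and 36.9%. Of the genes named here and not printed, Emp2 and Cxcl14 had no match to TTNNGNAA in the window, and Tfec had 3. Only 332 of the 499 genes that fell by 2-fold or more (66.5%) and 270 of the 425 that rose (63.5%) had a promoter, as did 63.8% of all genes tested there. TTNNGNAA stood in 31.0% of those that fell and 33.3% of those that rose. TTGCGCAA stood in 0.301% and 0.370%, and CCAAT in 29.5% and 33.7%. These shares were not tested against the rest, and no conclusion is drawn from them.

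A pair of other C/EBP genes rose in knock-out macrophages. Cebpa, encoding C/EBPα, measured 2.09, 3.76 and 3.27 CPM in wild-type and 16.6, 16.9 and 14.1 CPM in knock-out libraries, with no overlap. This made 2.40 on the log2 scale (standard error 0.135, adjusted p = 1.25e-13, edgeR). Cebpg, encoding C/EBPγ, which lacks a transactivation domain of its own, rose by 0.41 (standard error 0.0490). In ΔTAD macrophages the means of both were also above the wild-type means, by 2.05 for Cebpa (12.4 CPM) and 0.25 for Cebpg (58.4 CPM) on the log2 scale. Knock-out exceeded ΔTAD macrophages by 0.35 and 0.16, or by 0.36 and 0.23 without the first ΔTAD library. Cebpb at −0.040, Cebpe at 0.052 and Ddit3, encoding CHOP, at 0.14 were not called, and their libraries overlapped. Thus 2 of the 6 C/EBP genes outside chromosomes 12 and 17 rose (33.3%, against 21.1% of all genes) and none fell. Cebpz (chromosome 17) was at 0.13, below its chromosome's median. Per kilobase of exon, Cebpa was the lowest of the family in wild-type macrophages, at 1.15 CPM per kb, and stood at 6.02 in knock-out macrophages, between Cebpe (7.04) and Ddit3 (5.77). Cebpb remained far above these at 36.1 and 35.2 CPM per kb, and Cebpd stood at 1.74 and 1.45.

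The NF-Y genes encode another CCAAT-binding complex. Nfya was higher by 0.81 on the log2 scale, but lies on chromosome 17, whose median was 0.48. Nfyc (−0.23) and Nfyb (−0.20) both fell, but without knock-out replicate 1 or 2 or wild-type replicate 1 or 2 neither was called, and without wild-type replicate 3 only 1 of them was. Among 28 other bZIP factors 10 rose and 4 fell, with a median log2 fold change of 0.10 against −0.0061 for all genes outside the 2 chromosomes. Atf3, a stress-induced repressor and activator, rose from 17.7, 19.2 and 15.4 CPM in wild-type to 52.99, 54.2 and 60.4 CPM in knock-out libraries (1.68), and Maff rose by 1.07. Nfil3 was among those that fell, by 0.67 on the log2 scale.

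Factors of the macrophage lineage moved mainly upward. Of 25 such genes 16 rose and 2 fell, with a median of 0.39. Tfec, a macrophage factor of the MiT family, measured 0.199, 0.231 and 0.303 CPM in wild-type and 6.33, 7.86 and 5.55 CPM in knock-out libraries (4.72, standard error 0.269). Myc, a driver of growth and proliferation, measured 2.99, 2.26 and 2.36 CPM and 24.99, 26.5 and 29.2 CPM (3.39, standard error 0.111). The genotypes were far apart for both genes. Gfi1, encoding a transcriptional repressor, fell by 2.07 on the log2 scale at low levels (3.04 to 0.709 CPM), and Ets2 fell by 0.51.

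Chemokines changed in both directions, and by large amounts. Ccl2, encoding the monocyte attractant MCP-1, measured 38.04, 33.8 and 32.3 CPM in wild-type and 0.422, 0.967 and 0.793 CPM in knock-out libraries. This is a log2 fold change of −5.59 (standard error 0.146, adjusted p = 3.91e-20, edgeR), with no overlap. Cxcl16, a transmembrane chemokine that is also a scavenger receptor, rose from 0.648, 0.405 and 0.484 CPM to 9.07, 9.55 and 11.2 CPM (4.24). Cxcl14 rose from 0.698, 0.926 and 0.484 CPM to 9.49, 9.67 and 12.2 CPM (3.88). The abundant Ccl9 fell moderately, from a mean of 1121 to 824 CPM (−0.44). Of 11 chemokine genes tested 5 rose and 4 fell.

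Among 7 chemoattractant receptors 3 fell and 2 rose. C5ar1, the receptor of complement fragment C5a, measured 33.2, 33.5 and 30.2 CPM in wild-type and 9.81, 9.55 and 8.56 CPM in knock-out libraries (−1.80), and Ccr1 fell by 2.77 to a mean of 0.243 CPM. Cxcr4, the receptor of CXCL12, rose from 3.19, 2.78 and 2.00 CPM to 14.6, 14.3 and 12.9 CPM (2.37). Cx3cr1, the fractalkine receptor of resident macrophages, rose from 24.98, 24.02 and 27.1 CPM to 67.96, 67.8 and 70.4 CPM (1.44). For all 4 receptors the libraries of the genotypes were apart, as the rule for naming them required.

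Cytokine genes that were transcribed without stimulation moved more often upward. Of 16 tested outside the 2 chromosomes 7 rose and 2 fell, with a median of 0.37. Igf1, insulin-like growth factor 1, measured 52.3, 58.3 and 49.2 CPM in wild-type and 278, 294 and 283 CPM in knock-out libraries (2.42, standard error 0.0479). Every knock-out library was far above the highest wild-type library. Tnfsf13b, encoding the B-cell factor BAFF, rose by 1.83, while Il18 fell by 0.74 and Osm, oncostatin M, by 0.41.

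Of 33 cytokine receptor and JAK-STAT genes 18 rose and 4 fell (median 0.27). Tgfbr1, the signalling receptor of TGFβ, rose from 39.4, 44.6 and 46.1 CPM to 160.1, 164 and 166 CPM (1.92), and Csf2ra, the α chain of the GM-CSF receptor, from a mean of 0.494 to 3.31 CPM (2.75). Il1rap, the shared chain of the IL-1 and IL-33 receptors, fell from 18.7, 20.02 and 16.95 CPM to 4.38, 4.11 and 5.44 CPM (−1.998). Socs3, an inhibitor of cytokine signalling, fell by 1.43 on the log2 scale.

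Toll-like receptor and NF-κB genes were more often higher than lower, by small amounts. Of 41 genes 25 rose and 2 fell, with a median log2 fold change of 0.26. The 2 that fell were Tlr1, which recognises lipopeptides together with TLR2, from 40.5, 40.2 and 40.9 CPM to 12.9, 13.1 and 14.3 CPM (−1.59), and the adaptor Myd88 (−0.35). The largest increases were those of Irf7 (1.42), the master factor of type I interferon, and of Tnfaip3 (1.19), encoding A20, an inhibitor of NF-κB. In the p38, MK2 and AU-rich decay list 3 of 13 rose (23.1%) and 4 fell (30.8%), near the shares of all genes (21.1% and 21.6%). Mapk11, encoding p38β, rose by 1.57, Zc3h12a, the cytokine mRNA nuclease regnase-1, by 0.36, while the p38 kinase Map2k3 (−0.35) and the RNA-binding Elavl1 (−0.23) fell.

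Interferon-stimulated genes had the highest median of the lists of 10 or more genes. Of 38 tested 29 rose and 3 fell, with a median log2 fold change of 0.79, and 12 rose by 2-fold or more. Rtp4, an antiviral transporter-associated protein, measured 0.249, 0.231 and 0.424 CPM in wild-type and 1.58, 1.03 and 1.76 CPM in knock-out libraries (2.27, standard error 0.366). Ifi44 measured 0.349, 0.289 and 0.666 CPM and 1.48, 1.33 and 1.81 CPM (1.83, standard error 0.329). Both genes were near the floor in wild-type macrophages and low in both genotypes. Ifih1, the RNA sensor MDA5 (−0.997), and Oasl1, an inhibitor of IRF7 translation (−0.45), fell, and the count of 3 that fell became 1 without knock-out replicate 3 or wild-type replicate 1 or 2. Ifitm3, an abundant member, did not pass, with 549, 551 and 541 CPM and 553, 534 and 552 CPM. Compared with ΔTAD macrophages, 18 of the 38 were higher in knock-out macrophages (13.9% of all genes outside the 2 chromosomes were) and 5 lower (19.1% of all genes were), with a median difference of 0.43. Without the first ΔTAD library, when 41 passed the filter, 21 were higher (against 15.5% of all genes) and 5 lower (against 15.4%), with a median of 0.40.

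**Figure D4:**
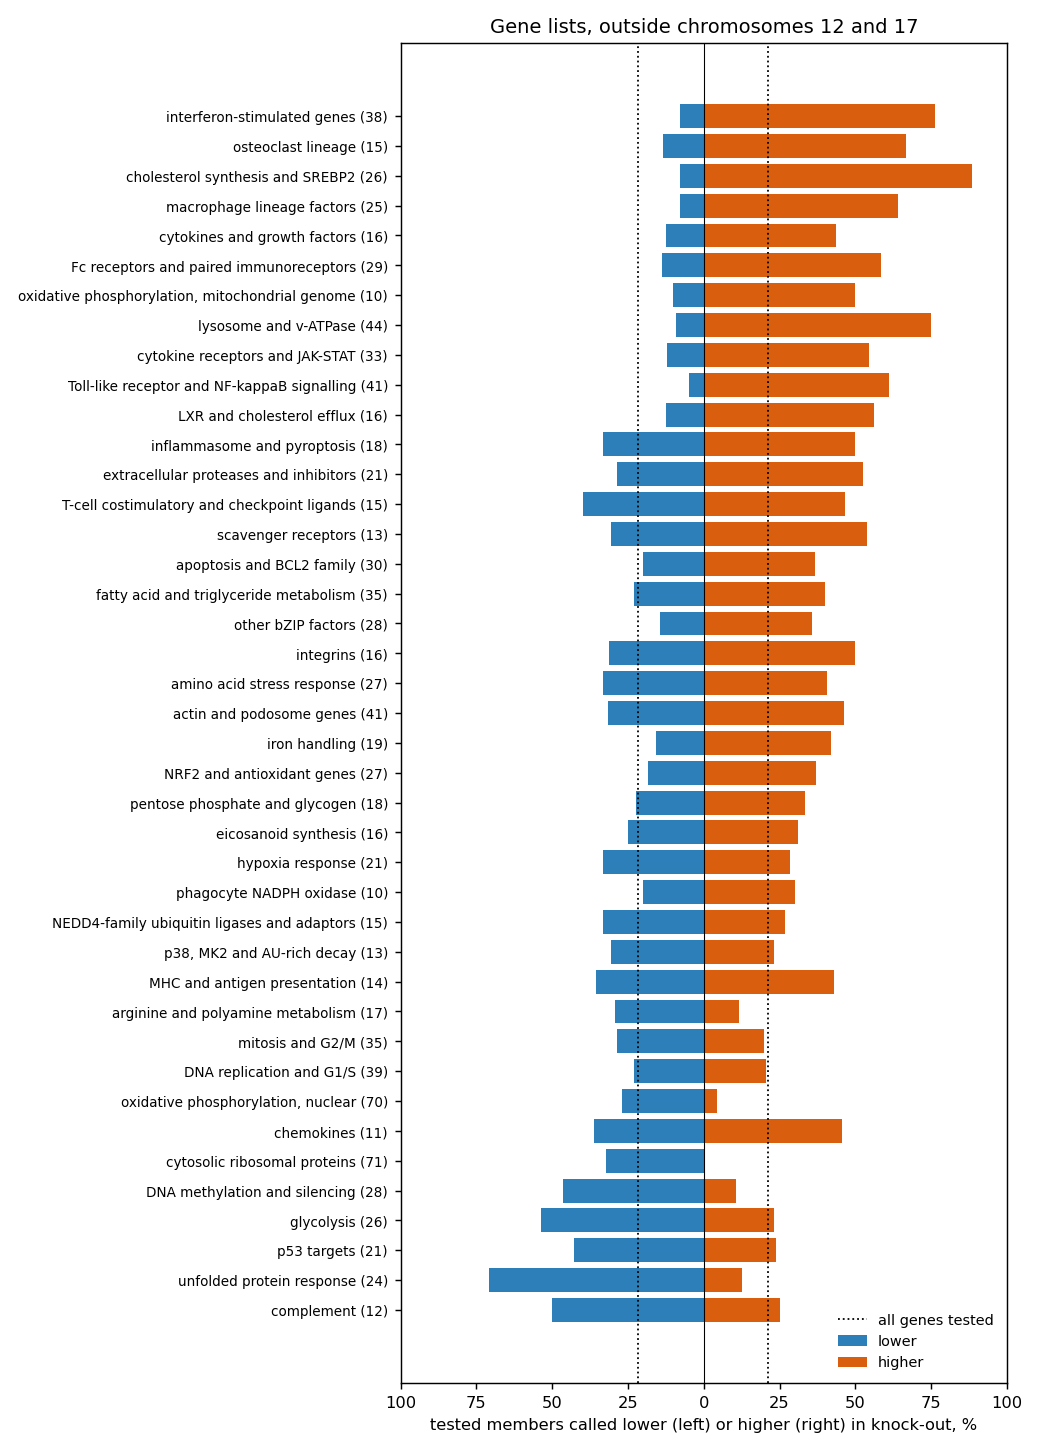
Share of the tested members of each gene list outside chromosomes 12 and 17 (number tested in brackets) called lower (blue, left) and higher (orange, right) in knock-out macrophages, in percent, for lists with at least 10 such members ordered by median log2 fold change. The dotted lines mark the shares of all genes (21.6% and 21.1%), and cholesterol synthesis reaches furthest to the right and the unfolded protein response furthest to the left.

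Genes that instruct T cells split into losses and gains. Of 15 costimulatory and checkpoint ligands 7 rose and 6 fell. Cd86, the B7-2 ligand of CD28 and CTLA-4, had 6.73, 6.13 and 5.63 CPM in wild-type libraries and no count in any knock-out library, at least 36.3-fold lower. Cd48, the ligand of 2B4 and CD2, had 6.38, 6.42 and 6.30 CPM and 0.0527, 0.121 and 0.170 CPM, at least 37.5-fold lower. In contrast Cd83, a maturation marker that stabilises MHC class II, rose from 2.84, 2.66 and 2.79 CPM to 15.1, 15.5 and 16.7 CPM (2.51), and Nectin2, the ligand of DNAM-1, by 1.84. For antigen presentation 6 of 14 genes rose and 5 fell. The cathepsin genes went opposite ways, as Ctss rose from a mean of 848 to 1764 CPM (1.06) and Ctsl fell from 586 to 261 CPM (−1.17). A further 11 genes of this list, 9 of them higher, lie on chromosome 17.

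Fc receptors and their relatives were more often higher than lower. Of 29 Fc receptors and paired immunoreceptors 17 rose and 4 fell (median 0.37). The activating receptor gene Cd200r4 rose from 2.49, 3.70 and 3.69 CPM to 8.28, 8.94 and 10.1 CPM (1.48). Fcgr1, the high-affinity IgG receptor, went the other way, from 40.5, 37.97 and 39.97 CPM to 19.5, 15.6 and 18.4 CPM (−1.14), as did sialoadhesin, Siglec1 (−1.04). Of 8 C-type lectins and TREM receptors outside the 2 chromosomes 4 rose, led by the inhibitory Clec12a (1.99) and dectin-2, Clec4n (1.66), and 1 fell, Clec4d (−0.26), a count that became 2 without wild-type replicate 2 or 3 or without any 1 of the knock-out libraries. The 6 further members of this list lie on chromosome 17, where 4 (Trem1, Trem3, Treml2 and Treml4) were lower and 2 (Trem2 and Treml1) higher. Among 13 scavenger receptors 7 rose, Cd36 among them (0.56), and 4 fell, led by Tyro3, a receptor for apoptotic cells (−3.11), and Cd5l (−1.15).

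Complement genes were the list of at least 10 genes with the lowest median, −0.37, with 6 of 12 lower and 3 higher. C1qtnf6, a C1q-like secreted protein, measured 12.7, 15.7 and 15.3 CPM in wild-type and 0.369, 0.121 and 0.227 CPM in knock-out libraries (−5.85, standard error 0.223). The genotypes were widely apart for this gene. C3ar1, the receptor of complement fragment C3a, rose by 0.30. Of 10 NADPH oxidase genes 3 rose (30%, against 21.1% of all genes) and 2 fell (20%, against 21.6%). The proton channel gene Hvcn1 stood out (2.32, 1.08 to 5.37 CPM) beside small changes of the subunits Cyba (0.42), Ncf1 (−0.23) and Rac2 (−0.17). All 10 were compared with ΔTAD macrophages too, and 9 were lower in knock-out macrophages, with and without the first ΔTAD library. The median differences were −0.32 and −0.30. Among all genes outside chromosomes 12 and 17, 19.1% were lower in that comparison, and 15.4% without the first ΔTAD library. Of 18 inflammasome genes 9 rose and 6 fell. Casp4, the mouse sensor of cytosolic LPS also called caspase-11, rose by 1.85 and the flagellin receptor Naip5 by 0.96, while Panx1 fell by 0.73.

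The genes that start prostaglandin synthesis were nearly lost. Ptgs2, encoding the inducible cyclooxygenase COX-2, measured 20.99, 20.9 and 21.6 CPM in wild-type and 0.527, 0.846 and 1.59 CPM in knock-out libraries (−4.42, standard error 0.172). Ptgs1, encoding COX-1, measured 7.33, 8.57 and 7.87 CPM and 0.527, 0.242 and 0.623 CPM (−4.05, standard error 0.238). The libraries did not overlap for either gene, as the naming rule required. Ptger4, encoding the prostaglandin E2 receptor EP4, went the opposite way, from 0.299, 0.116 and 0.303 CPM to 6.59, 6.71 and 7.76 CPM (4.82, standard error 0.239). Ltc4s, leukotriene C4 synthase, rose by 1.07. In the whole eicosanoid list 5 of 16 rose (31.25%, against 21.1% of all genes) and 4 fell (25%, against 21.6%), with a median of 0.050.

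**Figure D5:**
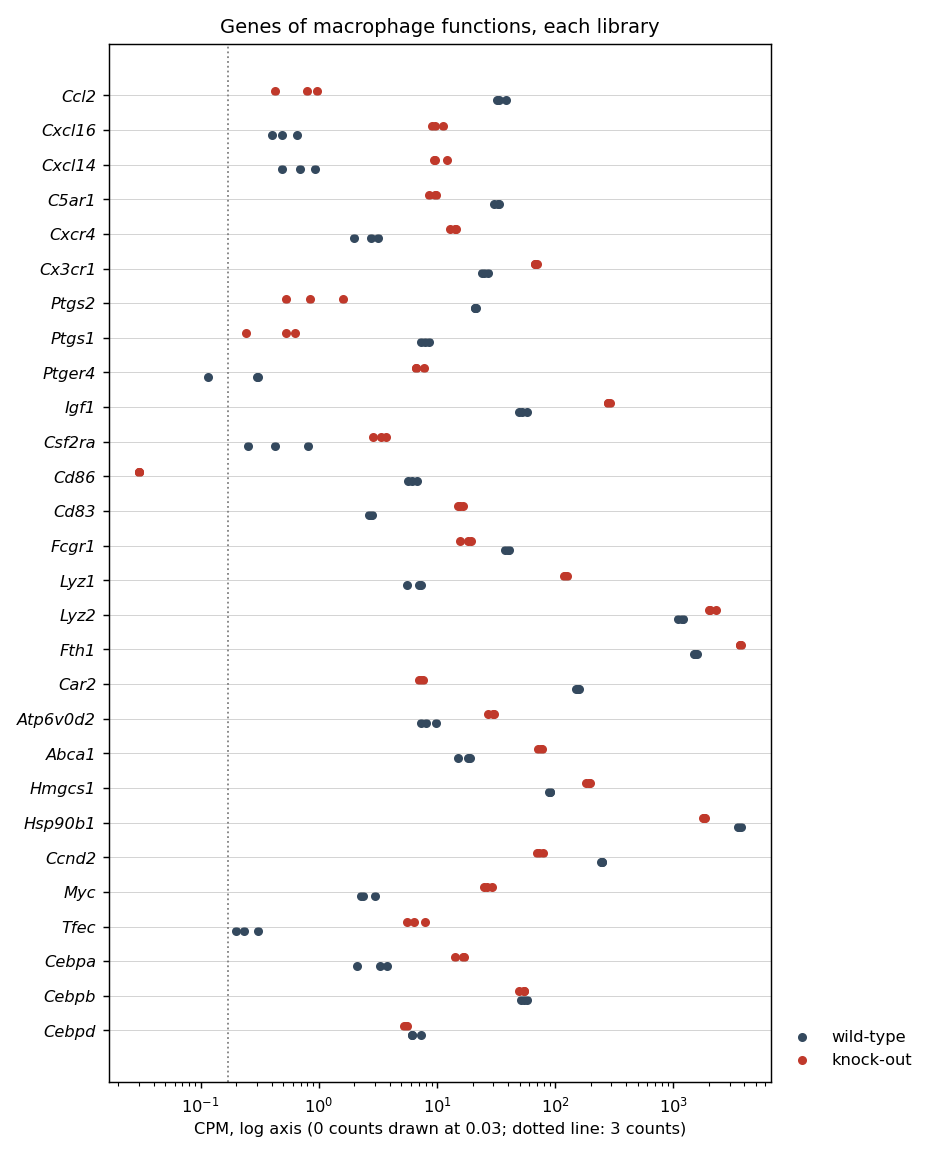
CPM on a log axis (horizontal) of 28 genes of macrophage functions and regulators, with 1 point for each of 3 wild-type (dark) and 3 knock-out (red) libraries and libraries without a count drawn at 0.03. Ccl2, Ptgs2, Ptgs1, Cd86 and Car2 lie to the left in knock-out macrophages, Cxcl14, Cxcl16, Ptger4, Tfec and Lyz1 to the right, and Cebpb overlaps.

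Most lysosomal genes rose, by small steps. Of 44 genes 33 rose and 4 fell, with a median of 0.32, and 3 of them (6.82%) rose by 2-fold or more, against 3.26% of all genes. Atp6v0d2, a proton pump subunit of macrophages and osteoclasts, rose from 9.82, 8.10 and 7.33 CPM in wild-type to 27.1, 30.6 and 29.7 CPM in knock-out libraries (1.78). Ppt1, palmitoyl-protein thioesterase, fell by 0.43, and Lamp1, the major membrane glycoprotein of lysosomes, lay at −0.029 with overlapping libraries. The lysozymes rose, Lyz1 from 5.58, 7.29 and 7.02 CPM to 121, 118 and 125 CPM (4.20) and the far more abundant Lyz2 from a mean of 1167 to 2114 CPM (0.86). Lyz1 and Lyz2 are near-identical copies, so reads between them may be split or lost. Srgn, the proteoglycan of granules, fell by 1.04, and of the 5 granule genes tested 2 rose and 1 fell.

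The osteoclast list, of interest because RAW264.7 cells can become osteoclasts, held 10 genes that rose and 2 that fell among 15 (median 0.56). Its strongest member moved downward. Car2, carbonic anhydrase 2, which supplies protons for bone resorption, measured 150.5, 158 and 158 CPM in wild-type and 7.07, 7.67 and 7.25 CPM in knock-out libraries (−4.41, standard error 0.0602). Ocstamp, a fusion protein, fell by 1.73 near the floor, and Siglec15 rose by 2.82, also near the floor in wild-type macrophages. Of 21 extracellular proteases and inhibitors 11 rose and 6 fell. Timp2, an inhibitor of metalloproteinases, rose from 8.38, 8.10 and 8.60 CPM to 65.4, 64.5 and 68.00 CPM (2.98), and Serpinb1a, an inhibitor of neutrophil elastase, by 1.97, while the urokinase receptor Plaur (−0.96) and Adam8 (−0.53) fell.

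Cholesterol synthesis had the highest share of genes that rose among the lists of at least 10 genes. Of 26 genes 23 rose and 2 fell, with a median of 0.47 and a range of −0.36 to 1.09, and only 1 reached 2-fold. That gene was Hmgcs1, HMG-CoA synthase, with 88.3, 91.2 and 90.6 CPM in wild-type and 194, 196 and 183 CPM in knock-out libraries (1.09, standard error 0.0412). Fdft1, squalene synthase, rose from 30.9, 29.7 and 30.2 CPM to 56.8, 58.3 and 54.6 CPM (0.90). The genotypes did not overlap for either enzyme, as the naming rule required. Scap, the escort of the SREBP factors, was among those that fell (−0.36). Against ΔTAD macrophages 9 of the 26 were lower and none higher, with a median difference of −0.12. Among all genes outside chromosomes 12 and 17, 19.1% were lower and 13.9% higher in that comparison. Without the first ΔTAD library 8 were lower and 1 higher, against 15.4% and 15.5% of all genes.

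Of 16 LXR and cholesterol export genes 9 rose and 2 fell (1 without knock-out replicate 1 or 3 or wild-type replicate 2 or 3), with a median of 0.25. Abca1, the exporter of cholesterol to apolipoprotein A-I, measured 15.1, 18.5 and 19.1 CPM in wild-type and 77.9, 76.1 and 71.5 CPM in knock-out libraries (2.11). Mylip, encoding IDOL, which degrades the LDL receptor, rose by 0.93, and Soat1, which esterifies cholesterol, fell slightly (−0.22), as did Cyp27a1 (−0.28). Of 35 fatty acid and triglyceride genes 14 rose and 8 fell. The carrier proteins parted, with Fabp3 rising from a mean of 0.711 to 5.88 CPM (3.04) and Fabp4 falling from 9.32 to 3.10 CPM (−1.58). Gpat3, an acyltransferase of triglyceride synthesis, fell by 1.82, and the desaturase gene Fads1 rose by 0.60.

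Among 19 iron genes 8 rose and 3 fell. Fth1, the ferritin heavy chain that stores iron, measured 1596, 1528 and 1504 CPM in wild-type and 3685, 3673 and 3741 CPM in knock-out libraries (1.26, standard error 0.0223). Ferroportin, the iron exporter encoded by Slc40a1, measured 40.2, 39.8 and 38.7 CPM and 82.9, 81.3 and 81.4 CPM (1.05). Both were higher in every knock-out library. Tfrc, the transferrin receptor for iron uptake, was not called, with 1072, 1131 and 1123 CPM and 1059.8, 1136 and 1107 CPM and an interval of the log2 fold change of −0.098 to 0.077. The zinc and iron importer gene Slc39a14 fell by 0.47 and the iron chaperone gene Pcbp2 by 0.21. Of 27 antioxidant genes 10 rose, among them Gstm1 (0.80) and sulfiredoxin, Srxn1 (0.79), and 5 fell, among them Gstp1 near the floor (−2.66) and the peroxiredoxin gene Prdx6 (−0.78).

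Chaperones of the endoplasmic reticulum were mostly lower. In the unfolded protein response list 17 of 24 genes fell and 3 rose, with a median of −0.33, and 3 further members, not counted here, lie on chromosome 12, where 64.7% of all genes fell. Hsp90b1, encoding the chaperone GRP94, measured 3572, 3714 and 3518 CPM in wild-type and 1848, 1793 and 1820.5 CPM in knock-out libraries (−0.98, standard error 0.0232). Pdia4, a disulfide isomerase, measured 457, 454 and 440.1 CPM and 245, 238 and 249 CPM (−0.88, standard error 0.0349), and the chaperone calreticulin, Calr, fell by 0.64. The libraries of the genotypes were well apart for these chaperones. The members that rose include the sensors themselves, Ern1, encoding IRE1α (0.51), and Eif2ak3, encoding PERK (0.46). The amino acid stress list did not share this direction, with 11 of 27 higher, among them Nupr1 (1.31) and Chac1 (1.30), and 9 lower, among them Ddit4 (−0.93) and Stc2 (−0.60).

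In glycolysis 14 of 26 genes fell and 6 rose, with a median of −0.22. Pfkfb3, the kinase that makes the activator of phosphofructokinase, fell by 0.70, and Pgam1, phosphoglycerate mutase, by 0.41. Tpi1, triosephosphate isomerase, had an interval of −0.097 to 0.033. The 2 largest increases were of isozymes better known from brain, Aldoc from 38.5, 35.9 and 39.2 CPM to 79.2, 78.6 and 74.3 CPM (1.03) and Eno2 from 42.7, 41.1 and 42.4 CPM to 80.7, 77.04 and 82.9 CPM (0.93). The hypoxia list had 7 genes that fell (33.3%, against 21.6% of all genes) and 6 that rose (28.6%, against 21.1%) among 21. Large losses among its members at 1 CPM or more were those of Car12, carbonic anhydrase 12, from 102.005, 109 and 107.421 CPM to 21.7, 21.2 and 22.6 CPM (−2.28), and Ndrg1, from a mean of 243 to 99.7 CPM (−1.28), while the mitophagy receptor Bnip3l (0.82) and the histone demethylase Kdm3a (0.45) rose. In pentose phosphate and glycogen metabolism 6 of 18 rose (33.3%), among them Epm2a (1.08) and glycogenin, Gyg (0.59). There 4 fell (22.2%), among them G6pdx (−0.23) and Rpe (−0.19). Of 17 arginine and polyamine genes 5 fell and 2 rose. Ass1, argininosuccinate synthase, fell from a mean of 1.62 CPM to at most the floor, at least 9.52-fold, and the spermine oxidase gene Smox by 1.24, whereas Gamt (0.99) and Oaz1 (0.18) rose.

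Genes of the respiratory chain moved little in the nucleus and more in the mitochondrial genome. Of 70 nuclear genes 19 fell and 3 rose (between 1 and 5 rose when single libraries were left out, with 1 without knock-out replicate 2 or 3 or wild-type replicate 3 and 5 without wild-type replicate 1). Their median was −0.050, 65 had a log2 fold change within 0.25 of 0, and the largest losses were those of Sdhd (−0.37) and Uqcrh (−0.37). The largest gains were Ndufa13 (0.20) and Ndufb3 (0.17). Of 10 protein genes encoded in the mitochondria 5 rose and 1 fell (0 without knock-out replicate 1 or 3 or wild-type replicate 2 or 3), with a median of 0.36. The complex I genes mt-Nd2 and mt-Nd1 rose, mt-Nd2 from 1091, 1226 and 1261 CPM to 2014, 2281 and 2116 CPM (0.84) and mt-Nd1 from a mean of 2787 to 4215 CPM (0.60). The mitochondrial share of counts was 1.50% to 1.75% in wild-type and 2.00% to 2.22% in knock-out libraries, and the part of RNA quality in this was not tested. Of 71 ribosomal protein genes 23 fell (32.4%, against 21.6% of all genes), none rose and 48 were not called, with a median of −0.086, and Rplp0 (−0.45) and Rpl27 (−0.25) were among those that fell. Without knock-out replicate 2 the number was 14, without wild-type replicate 1 it was 15 with 1 higher, and with scaling by library size alone it was 10.

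Cell-cycle lists stayed near the share of all genes, but held a few strong members. Of 39 replication and G1/S genes 9 fell and 8 rose, and of 35 mitosis genes 10 fell and 7 rose. Ccnd2, encoding cyclin D2, measured 245, 249 and 250.4 CPM in wild-type and 72.9, 78.2 and 70.8 CPM in knock-out libraries (−1.75, standard error 0.0389), and Ccne1, encoding cyclin E1, fell by 0.57. Cdkn2c, encoding the cyclin D kinase inhibitor p18, rose by 0.97 and the replication clamp gene Pcna by 0.46. In mitosis Aurkb, aurora kinase B, fell from a mean of 159 to 95.2 CPM (−0.74) and Cks2 by 0.43, whereas Nusap1 (0.59) and Wee1 (0.29) rose.

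Targets of p53 had a median of −0.32, with 9 of 21 lower and 5 higher. Phlda3, an inhibitor of AKT, fell from 13.1, 12.8 and 13.4 CPM to 4.11, 4.71 and 4.53 CPM (−1.56), and Ccng1 by 0.70. Plk2 went the other way, from 140.3, 132 and 119 CPM to 509.7, 516 and 525 CPM (1.99), and the death receptor gene Fas rose by 3.26 from near the floor. Of 30 apoptosis genes 11 rose and 6 fell. The survival gene Bcl2 rose from a mean of 17.6 to 31.3 CPM (0.83) and Birc3, an inhibitor of apoptosis, by 0.59, while the necroptosis kinase gene Ripk3 (−0.89) and NOXA, Pmaip1 (−0.66), fell.

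DNA methylation and silencing genes fell in 13 of 28 cases and rose in 3, with a median of −0.10 (8 fell with scaling by library size alone). Dnmt3l, a cofactor of de novo methylation, fell by 1.64 from a mean of 3.31 CPM, and Jarid2, a Polycomb cofactor, by 0.42. The methyl-DNA reader gene Mbd2 rose (0.21). In the NEDD4 family, whose founding member was lost, 5 of 15 genes fell and 4 rose. The paralog Nedd4l fell too, from a mean of 3.38 to 0.439 CPM (−2.94), and Wwp1 (0.65) and Smurf1 (0.53) rose. Of 9 Ly6 genes and galectins 4 fell and 4 rose, the latter with Lgals3bp (1.11) and Lgals8 (0.62).

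Adhesion genes moved both ways. Of 16 integrin genes and partners 8 rose and 5 fell, and the 8 became 5 without knock-out replicate 3 and 3 with scaling by library size alone. Itga5, the fibronectin receptor α chain, rose from a mean of 156 to 261 CPM (0.74) and Ilk by 0.42. Itga6 fell by 2.31 and Itgax, CD11c, from 14.9, 16.4 and 14.4 CPM to 6.01, 7.25 and 7.48 CPM (−1.14). Of 41 actin and podosome genes 19 rose and 13 fell (6 with scaling by library size alone). Myo1e, a myosin of podosomes, rose from 322, 316 and 301 CPM to 617, 612 and 611 CPM (0.97) and Lsp1 by 0.78, while paxillin, Pxn (−0.76), and fascin, Fscn1 (−1.40), fell. Fscn1, at 1.04 and 0.394 CPM, was not called without knock-out replicate 1 or 2 or wild-type replicate 1.

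Knock-out and ΔTAD macrophages share the wild-type reference, so for a few genes their values are given side by side, with the direct test between them. Among all genes outside chromosomes 12 and 17, 19.1% were lower and 13.9% higher in knock-out than in ΔTAD macrophages. The few genes below do not show how common a difference is. The chemokine gene Cxcl14 had means of 0.703 CPM in wild-type, 10.5 CPM in knock-out and 0.625 CPM in ΔTAD macrophages, and knock-out exceeded ΔTAD macrophages by 4.01 on the log2 scale (adjusted p = 5.24e-14, edgeR). C1qtnf6 had 14.6, 0.239 and 27.6 CPM in the same order, a difference between knock-out and ΔTAD of −6.77. Ferroportin, Slc40a1, had 39.6, 81.9 and 16.1 CPM, a difference of 2.35, and Serpinb1a had 10.8, 42.5 and 3.90 CPM, a difference of 3.41. For C1qtnf6, Slc40a1 and Serpinb1a the means of the mutants stood on opposite sides of the wild-type mean. Csf2ra had a higher mean in ΔTAD macrophages, 18.8 CPM, and knock-out macrophages were below them (−2.52 on the log2 scale). For Hmgcs1 (−0.046, adjusted p = 0.357) and Hsp90b1 (−0.026, adjusted p = 0.366) no difference between the mutants was called by edgeR. Without the first ΔTAD library the differences were 3.93 for Cxcl14, −6.68 for C1qtnf6, 2.35 for Slc40a1, 3.31 for Serpinb1a, −2.55 for Csf2ra, −0.0032 for Hmgcs1 and −0.0080 for Hsp90b1. For Ccl2, Myc and Atf3 they were 0.53, 0.16 and 0.035. Hmgcs1, Hsp90b1, Ccl2, Myc and Atf3 were again not called (adjusted p = 0.958, 0.861, 0.309, 0.0889 and 0.67, edgeR).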

How the data were processed

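RNA of unstimulated RAW264.7 cells was depleted of ribosomal RNA and sequenced. Trimmomatic served the authors for trimming, HISAT2 for alignment to GRCm38 and HTSeq for counts on genes. The submitters' processing notes give Trimmomatic 0.36 and HISAT2 2.3.4.3, while the study's methods give other versions of both, so the versions are uncertain. They deposited raw counts, 1 list per library with 55487 identifiers and 5 tally lines, which were dropped. Between 22.2% and 25.8% of the records of the 6 libraries lay outside genes. The strand and overlap settings of the counting are not given in the sources used here, so overlapping and antisense genes and paralogs are uncertain.

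Groups came from the genotype labels. Counts were scaled with TMM and tested with edgeR 4.0.16 (R 4.3.3), in one quasi-likelihood model of all 9 libraries, for the 14312 genes kept by filterByExpr (minimum count 10, minimum total 15). The common biological coefficient of variation was 0.0468. Calls required an adjusted p-value (Benjamini-Hochberg) under 0.01. Where every library of a genotype held 3 counts or fewer, that level was set to the floor and the fold is a bound. For chromosomes 12 and 17 the model was repeated with each chromosome's median as an offset. Positions and symbols came from GENCODE (GRCm38), promoters from RefSeq (GRCm38.p6). Exact permutation tests were two-sided. The steps were tested on simulated data. Standard errors were derived from each fold change and its F statistic.

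The 47 gene lists, the 10 marker lists and the members were chosen with earlier results of these data known. Of the listed symbols 2 were not matched. Named are the C/EBP genes, in each list up to 2 genes lower and 2 higher with the largest change, at least 1 CPM in the higher genotype and no overlap, the 10 largest changes in each direction at 10 CPM or more, on chromosomes 12 and 17 the 3 farthest on each side of the median under the same limit of 10 CPM, the 5 highest switched-off and switched-on genes, and 5 abundant list members with an interval within 0.1 of 0. Further genes named in passing (markers, Trem1, Ffar4, Elovl4, Alpl and the ends of a window) were chosen after their values were seen. Some genes that meet this rule are not reported here. Also tried were limma-voom (limma 3.58.1), DESeq2 1.42.0, other scalings, filters and thresholds, the 2 genotypes alone, a replicate block, leaving out single libraries and, chosen after seeing the data, leaving out the first ΔTAD library, which has the lowest scaling factor (0.888) and the largest share of counts on chromosome 17.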

Additional observations from a re-analysis of the deposited data

How the results depend on the processing

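Counts of called genes stayed within 1.5 times under every test, scaling, filter and left-out library tried. Where a 2-fold change was also required they were 578 lower and 518 higher over all genes, 499 and 425 outside chromosomes 12 and 17, and, relative to the chromosome's median, 39 on chromosome 12 and 60 on chromosome 17. Of the 5562 calls outside both chromosomes none took the opposite direction under any alternative, and between 82.7% (library size alone) and 99.8% (DESeq2's size factors) were kept under the other tests, scalings and filters. With single libraries left out the numbers outside both chromosomes ran from 2442 to 2677 lower and from 2418 to 2596 higher, and without the first ΔTAD library they were 2992 and 2824.

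The median of chromosome 12 was −0.48 with every gene with at least 1 count and −0.56 with protein-coding genes only. That of chromosome 17 was 0.49 with TMM without chromosomes 12 and 17, 0.47 with library size alone, 0.43 with every gene with at least 1 count, 0.51 with protein-coding genes only, and 0.47 to 0.51 with single libraries left out. With absence set at 0 counts 13 genes were switched off and 0 on, and with presence set at 100 counts 16 and 0. With single libraries left out 53 to 61 were switched off and 2 to 3 on.

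Libraries with the same replicate number did not deviate together (correlations of 0.012, −0.021 and −0.050), so the numbers were not taken as pairs. With the replicate block 2735 genes were lower and 2650 higher outside both chromosomes, 3115 and 3164 in all, and 229 and 316 were called relative to the medians of chromosomes 12 and 17. Of the 211 named genes 14 lost their call under at least 1 alternative, most often Nfyc, Nfyb, Cyp27a1, Ndufb3 and Oasl1. A further 6, never called, changed sign around 0 with single libraries left out. Their ranges were −0.068 to 0.0084 for Cebpb, −0.0019 to 0.11 for Cebpe, −0.028 to 0.023 for Tfrc, −0.065 to 0.0052 for Lamp1, −0.014 to 0.049 for Gusb and −0.017 to 0.024 for Ifitm3. With TMM without chromosomes 12 and 17 Tfrc was at 0.00034 and Ifitm3 at 0.0080, and with every gene with at least 1 count Ifitm3 was at 0.0012. With library size alone, list counts beside those given above fell to 0 lower NF-Y genes, 1 lower NADPH oxidase gene, 2 lower pentose phosphate genes, 1 higher arginine gene and 0 higher nuclear respiratory genes. The causes were not tested. Depth limits what can be said of genes near 0.17 CPM, the level of 3 counts.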

Other observations

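Counting calls of any size, transcript classes that the gene lists do not hold had smaller shares than all genes outside chromosomes 12 and 17 (21.6% lower and 21.1% higher). Outside chromosomes 12 and 17, 1083 processed pseudogenes were tested, of which 111 (10.2%) were lower and 34 (3.14%) higher in knock-out macrophages, with a median log2 fold change of −0.11. Among 754 transcripts of the annotation class TEC, which await experimental support, 21 (2.79%) were lower and 100 (13.3%) higher, with a median of 0.23. Of 258 lincRNAs 50 (19.4%) were lower and 40 (15.5%) higher, of 273 antisense genes 24 (8.79%) and 18 (6.59%), and of 79 snoRNAs 4 (5.06%) and 2 (2.53%). The smaller shares did not hold for every class at 2-fold or more, where 3.83% of all genes fell and 3.26% rose. There 33 lincRNAs fell and 11 rose, 13 antisense genes fell and 11 rose, and 12 TEC transcripts fell and 41 rose. For processed pseudogenes the numbers were 20 and 9, and for snoRNAs 0 and 1. Many pseudogenes share sequence with their parent genes, and TEC and antisense transcripts overlap other genes, so counts of these classes are uncertain. The share of records outside genes was 24.2% to 25.8% in knock-out and 22.2% to 24.3% in wild-type libraries, and its part in these counts was not tested.

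Genes whose wild-type and knock-out levels agree closely include abundant members of lists that otherwise moved. Gusb, the lysosomal β-glucuronidase, measured 582, 554 and 547 CPM in wild-type and 569, 548 and 584 CPM in knock-out libraries, with an interval of the log2 fold change of −0.057 to 0.088. In all, 288 genes had an interval within 0.1 of 0.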
